A study of Drosophila melanogaster with 2 samples.

Results

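The mitosis and cytokinesis machinery was followed in 2 libraries of nuclear RNA from *Drosophila* embryos, through a list of 44 genes named by symbol: mitotic cyclins and kinases, the spindle checkpoint, the route to anaphase, kinetochore, condensin, spindle and cytokinesis genes. Of these, 43 were found by symbol among the 13623 genes of the expression values. The remaining gene, Zw10, was listed only under its earlier symbol mit(1)15 and is given apart. Nuclei of 2 cell types were isolated by INTACT: a Gal4 driver makes a tagged protein of the nuclear envelope in the chosen cells, and their nuclei are captured by the tag after whole cross-linked embryos are homogenized. The glia library came from embryos 12 to 14 h after egg laying, in which the driver repo-Gal4, over the balancer Tm3B, expressed the tag UAS-3xFLAG-blrp-mCherry-RanGap. The GNP library (Gcm-expressed neural progenitors, labelled early glial cells) came from embryos of 5 to 7 h, in which gcm-Gal4 expressed the same tag, together with UAS-mCDGFP over cyo. These genotypes are those of the labels, while the study's methods give the glia balancer as Tm3 and describe GNP embryos from flies without Cyo. The gcm driver is also active in precursors of hemocytes, and both lines carry the tagged RanGap transgene. Each cell type had 1 library of pooled embryos and no replicate, so no difference below has a replicate check, no test was possible, and the cell type, the driver line and the age of the embryo cannot be told apart.

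A dividing cell enters mitosis when cyclins activate the kinase Cdk1, condenses its chromosomes with condensin, and attaches them to the spindle through kinetochores. The spindle checkpoint holds the cell until every chromosome is attached. The anaphase-promoting complex then marks cyclins and securin for destruction, separase frees the sister chromatids, and an actomyosin ring divides the cytoplasm. Neural progenitors of the embryo divide repeatedly, and glia of the late embryo are mostly non-dividing cells that wrap axons and form the blood-brain barrier.

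Levels are FPKM (fragments per kilobase of transcript, scaled to the mapped reads of the library), which can be compared between genes because they are per length. Changes are log2((glia FPKM + 1)/(GNP FPKM + 1)), so that a negative value means lower in glia. A gene is described as at least 2-fold lower or higher on that scale by size alone. Low FPKM values fell on steps of whole reads that correspond to about 52.2 M mapped reads in the glia library and 63.7 M in the GNP library, assuming fragments of 200 bases. Of the 11 glial markers examined, 6 were at least 2-fold higher in glia, among them repo at 32.0 FPKM in glia and 3.84 FPKM in GNP, and 0 were at least 2-fold lower. The gcm gene, whose regulatory sequence drives the tag in GNP, was at 21.5 FPKM in glia and 40.2 FPKM in GNP. Of 10 neural progenitor markers, 7 were at least 2-fold lower in glia and 0 higher, with summed levels of 148 FPKM in glia and 438 FPKM in GNP. Markers of other cells also differed: 7 muscle markers summed to 6342 FPKM in glia and 926 FPKM in GNP, 6 neuron markers to 462 FPKM in glia and 106 FPKM in GNP, and 7 plasmatocyte markers to 262 FPKM in glia and 125 FPKM in GNP. The plasmatocyte sum rests on vkg and Pxn, the only 2 of the 7 that were at least 2-fold higher in glia, and the median log2 change of the list was -0.08. In the neuron sum, fne alone gave 327 FPKM in glia, and 4 of the 6 markers were at least 2-fold higher there. The neuron marker elav was lower, at 44.2 FPKM in glia and 76.9 FPKM in GNP. Of the muscle markers 6 were at least 2-fold higher, and Mef2 was at 43.7 FPKM in glia and 58.3 FPKM in GNP. The 6 germ cell markers summed to 21.6 FPKM in glia and 43.7 FPKM in GNP. At least 2-fold lower in glia were 4 of them, while vas was higher, at 12.5 FPKM in glia and 5.55 FPKM in GNP. Only eater, a plasmatocyte receptor, was listed at 0 in glia, and no marker was at 0 in GNP. The part of these other cells in the levels of the mitotic genes was not tested.

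Mitotic genes were lower in the glia library almost throughout. Of the 43 genes, 40 were at least 2-fold lower in glia, 2 (vih and Mis12) lay within 2-fold, and 1 (tacc) was at least 2-fold higher, though not after centring on the median gene or scaling to TPM. Among all 13623 genes, 16.4% were at least 2-fold lower and 21.2% at least 2-fold higher. At 4-fold or more, 35 of the 43 were lower, against 4.51% of all genes, and at 8-fold or more 25 were lower, against 1.08% of all genes. The median log2 change of the 43 genes was -3.19, while that of all genes was 0.04. Among genes whose mean over the libraries was 10 FPKM or more, 36 of 39 members were at least 2-fold lower in glia, against 26.3% of all 6565 such genes. Some members enter this set only through their GNP level, such as asp at 1.62 FPKM in glia and 40.4 FPKM in GNP. This count is therefore not a separate check. In a bulk library, fewer dividing cells and less RNA per cell cannot be told apart.

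The 43 genes summed to 839 FPKM in glia and 5981 FPKM in GNP, which is 0.0946% of all FPKM in glia and 0.803% in GNP. The median gene stood at 9.47 FPKM in glia and 76.0 FPKM in GNP. Its place among all genes was percentile 52.4 in glia and 89.0 in GNP, near the middle of all genes in glia and close to the top 10% in GNP. Only 3 of the 43 genes were in the top 10% of the glia library, against 21 in the GNP library. For 24 genes the glia level was under 10% of the GNP level, for 10 it was between 10 and 20%, for 6 between 20 and 50%, and for 3 above 50%. The quartiles of that percentage were 6.85 and 15.7. None of the 43 genes was at 0 in glia. Among the 22 members with 1 annotated transcript, the fewest reads were about 83.8 for cid in glia and 487 for Mis12 in GNP.

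**Figure D1:**
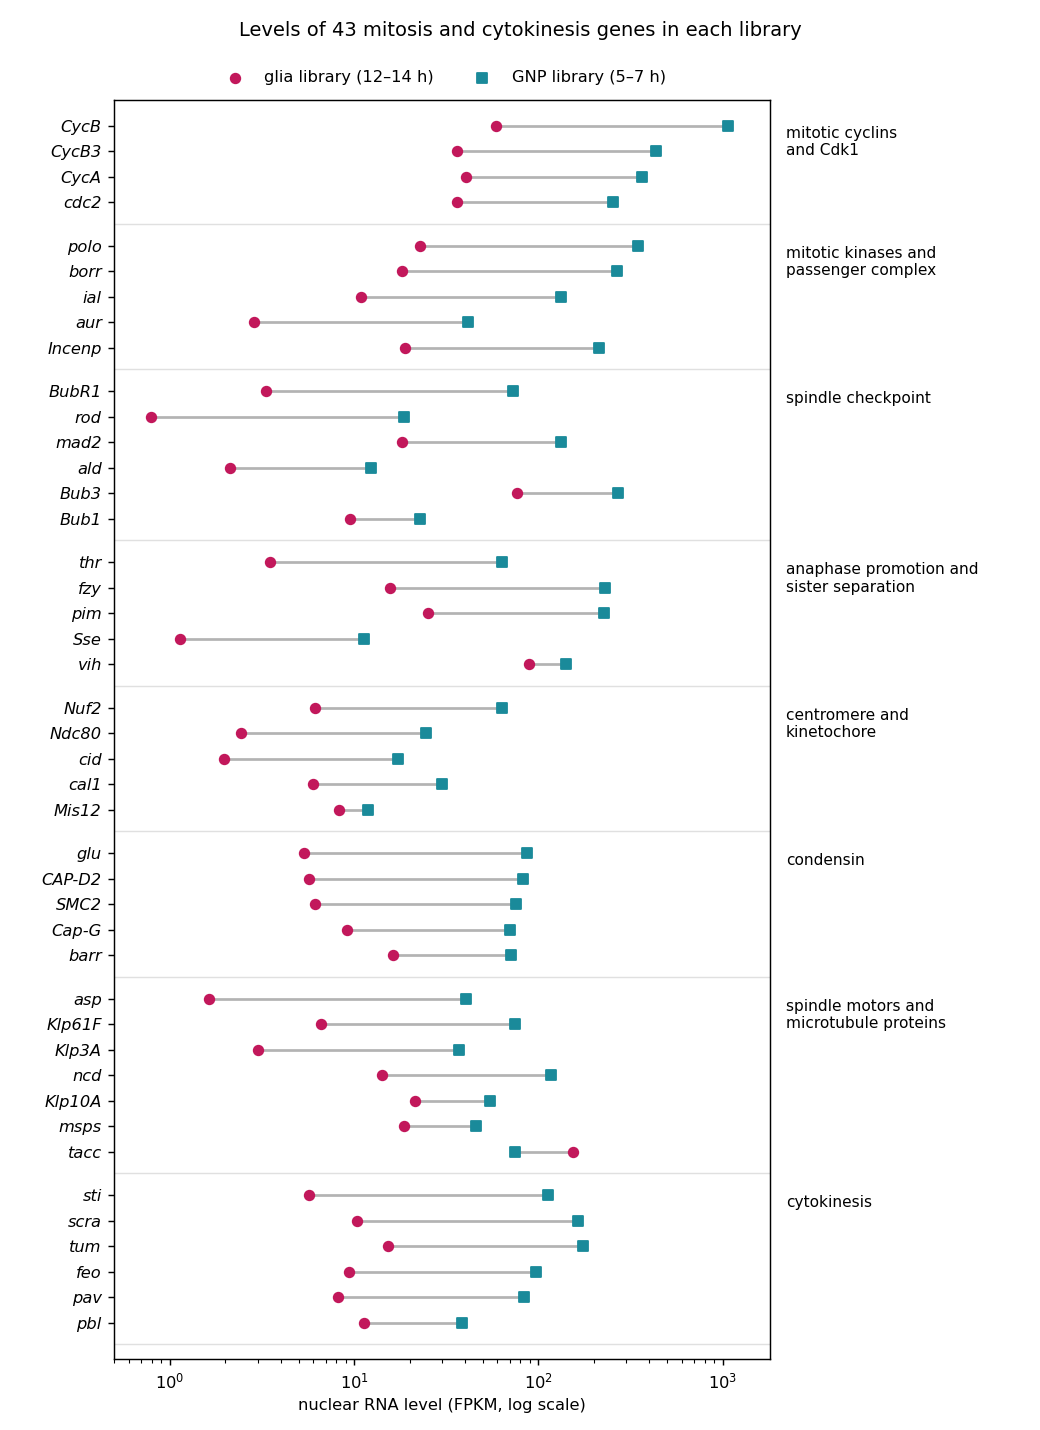
Level of each of the 43 genes in the glia library (circles) and the GNP library (squares), in FPKM on a log axis, with 1 library each and no error bars. Genes are grouped by role, and ordered within each role by their change. The circle lies left of the square for 42 genes and right of it for tacc, at 155 FPKM in glia and 74.4 FPKM in GNP.

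The mitotic cyclins and their kinase had the highest levels of all 8 role groups in GNP, and all 4 were at least 4-fold lower in glia. CycB, the B-type cyclin that carries Cdk1 into mitosis, was at 59.3 FPKM in glia and 1067 FPKM in GNP. Its GNP level was the highest of the 43 genes, and its log2 change (-4.15) the lowest. That rank depends on the pseudocount. With 0.1 in place of 1, asp (-4.55), BubR1 (-4.42), rod (-4.41) and sti (-4.28) were lower than CycB (-4.17). CycB3, a B-type cyclin of its own branch that works at anaphase, was at 36.1 FPKM in glia and 437 FPKM in GNP (log2 change -3.56). CycA, which acts in G2 and early mitosis, was at 40.7 FPKM in glia and 365 FPKM in GNP (log2 change -3.13). The kinase gene cdc2, today Cdk1, was at 36.1 FPKM in glia and 256 FPKM in GNP (log2 change -2.79), so the cyclins were further apart between the libraries than the kinase they activate. The order of the cyclins differed as well, with the highest over the lowest at 1.64 in glia and 2.93 in GNP. These 4 genes were still the fourth to the seventh highest members in glia.

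Kinases that build the spindle and the chromosomal passenger complex, which corrects wrong attachments and later marks the division plane, were the most even group, with 5 of 5 at least 8-fold lower in glia and log2 changes from -3.87 to -3.43. The gene polo, which encodes the founding Polo kinase, was at 22.8 FPKM in glia and 348 FPKM in GNP. The Aurora A gene aur, active at centrosomes, was at 2.87 FPKM in glia and 41.7 FPKM in GNP. Its relative ial, the Aurora B of the passenger complex, was at 10.8 FPKM in glia and 133 FPKM in GNP. The Borealin gene borr stood at 18.2 FPKM in glia and 266 FPKM in GNP, and the scaffold gene Incenp at 18.9 FPKM in glia and 213 FPKM in GNP. The Survivin subunit of the complex, Det, which is not among the 43 genes, was at 12.1 FPKM in glia and 93.2 FPKM in GNP. Levels of these passenger genes and Det spread 1.75-fold from lowest to highest in glia and 2.86-fold in GNP, so that they stayed close to each other in both libraries.

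The spindle checkpoint was the least even of the groups in which every gene was at least 2-fold lower. All 6 of its genes were at least 2-fold lower in glia, with log2 changes from -4.10 to -1.18 and a median of -2.44. BubR1, a component of the inhibitor that holds back anaphase, was at 3.34 FPKM in glia and 73.3 FPKM in GNP (log2 change -4.10). The large kinetochore protein gene rod was at 0.789 FPKM in glia and 18.7 FPKM in GNP (log2 change -3.46), the lowest glia level of the 43 genes. Of its partners in the RZZ complex, mit(1)15, the earlier symbol of Zw10, was at 8.55 FPKM in glia and 25.8 FPKM in GNP (log2 change -1.49). The third partner, zwilch, was at 0.588 FPKM in glia and 10.2 FPKM in GNP (log2 change -2.81). The highest of these 3 subunit genes was 14.6 times the lowest in glia and 2.54 times in GNP. Zw10 also acts in vesicle transport between the Golgi and the endoplasmic reticulum in dividing and non-dividing cells. The part of this role in its level was not tested.

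The gene mad2, whose protein changes shape at unattached kinetochores, was at 18.3 FPKM in glia and 132 FPKM in GNP (log2 change -2.79). The kinase gene ald, today Mps1, was at 2.12 FPKM in glia and 12.3 FPKM in GNP (log2 change -2.09). Bub3, a small WD-repeat protein gene, was at 76.1 FPKM in glia and 272 FPKM in GNP (log2 change -1.82), and was the third highest member in glia. The kinase gene Bub1 was at 9.47 FPKM in glia and 22.8 FPKM in GNP, and its log2 change of -1.18 was the smallest of the group. With scaling to the upper quartile, its log2 change was -0.99, just inside 2-fold.

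Of the genes that start anaphase, 4 of 5 were at least 4-fold lower in glia and vih lay within 2-fold. The separase gene Sse, whose product cuts cohesin, was at 1.14 FPKM in glia and 11.4 FPKM in GNP (log2 change -2.53). Its partner thr was at 3.48 FPKM in glia and 63.8 FPKM in GNP (log2 change -3.85). The securin gene pim, which holds separase inactive until anaphase, was at 25.3 FPKM in glia and 228 FPKM in GNP (log2 change -3.12). In both libraries pim was highest and Sse lowest of these 3 genes, with ratios of 22.2 in glia and 20.1 in GNP. The activator gene fzy, the Cdc20 of the fly, was at 15.7 FPKM in glia and 231 FPKM in GNP (log2 change -3.79). By contrast vih, the ubiquitin-conjugating enzyme gene that works with the anaphase-promoting complex, was at 89.5 FPKM in glia and 140.5 FPKM in GNP (log2 change -0.64). It was the second highest member in glia, and about 5911 reads in glia and 11321 in GNP stood behind these values.

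Centromere and kinetochore genes had the lowest levels in GNP of all role groups, with a median of 24.5 FPKM, and 4 of 5 were at least 4-fold lower in glia. The gene cid, which encodes the centromeric histone, was at 1.97 FPKM in glia and 17.2 FPKM in GNP (log2 change -2.62). Its loading factor gene cal1 was at 5.97 FPKM in glia and 29.9 FPKM in GNP (log2 change -2.15). Nuf2 was at 6.17 FPKM in glia and 63.8 FPKM in GNP, and Ndc80 at 2.42 FPKM in glia and 24.5 FPKM in GNP, both of the complex that grips microtubules. The glia level was 9.67% of the GNP level for Nuf2 and 9.88% for Ndc80, so this pair stood in nearly the same ratio in the 2 libraries. Spc25 of the same complex, which is not among the 43 genes, was at 17.0 FPKM in glia and 91.0 FPKM in GNP, or 18.7%. With it, the highest of these 3 subunit genes was 7.04 times the lowest in glia and 3.71 times in GNP. Mis12, of the linker between centromere and microtubule, was at 8.28 FPKM in glia and 12.0 FPKM in GNP, a log2 change of -0.48, with about 277 reads in glia and 487 in GNP.

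Condensin compacts mitotic chromosomes, and its 5 genes were all at least 4-fold lower in glia. In GNP their levels were almost equal, between 70.5 and 86.7 FPKM, with the highest 1.23 times the lowest. In glia they spread over 3.04-fold. The SMC subunit genes glu and SMC2 were at 5.33 and 6.11 FPKM in glia, against 86.7 and 76.0 FPKM in GNP. CAP-D2 was at 5.67 FPKM in glia and 82.2 FPKM in GNP, and Cap-G at 9.15 FPKM in glia and 70.5 FPKM in GNP. The subunit that bridges the SMC heads, barr, was at 16.2 FPKM in glia and 70.7 FPKM in GNP. Its log2 change of -2.06 was the smallest of the complex, and that of glu, at -3.79, the largest in size.

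Spindle motors and microtubule proteins held both ends of the range when the glia level is taken as a percentage of the GNP level. The gene asp, whose protein focuses spindle poles, was at 1.62 FPKM in glia and 40.4 FPKM in GNP, and its glia level was 4.02% of the GNP level, the lowest percentage of the 43 genes. Klp61F, the bipolar kinesin that pushes poles apart, was at 6.59 FPKM in glia and 74.98 FPKM in GNP (log2 change -3.32). The chromokinesin gene Klp3A was at 2.99 FPKM in glia and 37.0 FPKM in GNP (log2 change -3.25). The minus-end-directed kinesin gene ncd was at 14.2 FPKM in glia and 117 FPKM in GNP (log2 change -2.96).

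The remaining 3 genes of this group act on microtubule ends or bind those that do. Klp10A, a kinesin that depolymerizes microtubules, was at 21.4 FPKM in glia and 54.6 FPKM in GNP (log2 change -1.31). The microtubule polymerase gene msps was at 18.7 FPKM in glia and 45.7 FPKM in GNP (log2 change -1.24). Its centrosomal partner tacc was at 155 FPKM in glia and 74.4 FPKM in GNP, a log2 change of 1.05. It was the only one of the 43 genes higher in glia, and was the highest of them there, against rank 24 in GNP. Its change was 1.06 with a pseudocount of 0.1 and 1.26 with upper quartile scaling. It was 0.94 when centred on the median gene and 0.80 when scaled to TPM, both inside 2-fold. Without tacc, the correlation across the other 42 genes between log2(FPKM + 1) in glia and in GNP had a Spearman coefficient of 0.77 and a Pearson coefficient of 0.78. With tacc these were 0.73 and 0.71. For all 13623 genes they were 0.87 and 0.87. The points of these correlations share the 2 libraries and are not independent.

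Cytokinesis genes were all at least 2-fold lower in glia, and 5 of 6 at least 8-fold. The citron kinase gene sti was at 5.69 FPKM in glia and 113 FPKM in GNP (log2 change -4.08). The anillin gene scra, whose product scaffolds the contractile ring, was at 10.4 FPKM in glia and 163 FPKM in GNP (log2 change -3.85). Centralspindlin bundles the midzone, and its genes tum and pav were at 15.2 and 8.22 FPKM in glia, against 175 and 83.3 FPKM in GNP. The highest of this pair was 1.85 times the lowest in glia and 2.10 times in GNP. The microtubule bundler gene feo was at 9.34 FPKM in glia and 97.7 FPKM in GNP (log2 change -3.26). The gene pbl, needed for the cleavage furrow to form, was at 11.3 FPKM in glia and 38.5 FPKM in GNP, and its log2 change of -1.68 was the smallest of the group.

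**Figure D2:**
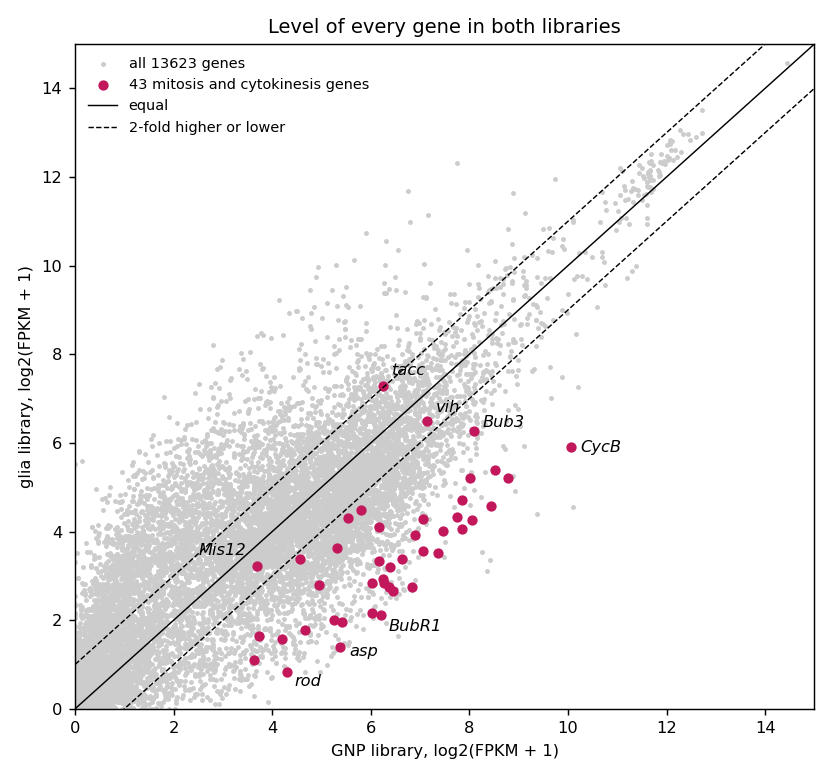
Level of every gene in the GNP library (x axis) and in the glia library (y axis), both as log2(FPKM + 1), with the 43 mitosis and cytokinesis genes as large points. The solid line marks equal levels and the dashed lines 2-fold differences: 40 of the large points lie below the lower dashed line, vih and Mis12 between the lines, and tacc just above the upper one (inside 2-fold after centring on the median gene or scaling to TPM).

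Further genes of the same process, in 10 lists outside the 43, were less uniform. Of 110 such genes, 108 were found, with a median log2 change of -1.43. Of these, 74 were at least 2-fold lower in glia, 3 at least 2-fold higher and 31 within 2-fold. The 31 include Klp59C, Klp59D and CycJ, which averaged under 1 FPKM, where the added pseudocount keeps changes small. Among the 105 genes averaging 1 FPKM or more, the median was -1.46. All 11 other kinetochore and checkpoint genes were at least 2-fold lower (median -2.67), from cmet, a kinetochore motor, at 1.26 FPKM in glia and 23.5 FPKM in GNP, to Mad1 at 23.2 FPKM in glia and 63.1 FPKM in GNP. All 9 augmin genes, which add microtubules inside the spindle, were at least 2-fold lower (median -2.68), with dgt6 at 3.18 FPKM in glia and 47.3 FPKM in GNP as the lowest and wac at 24.2 FPKM in glia and 59.3 FPKM in GNP as the highest change. For the gamma-tubulin complex, which seeds microtubules, 7 of 8 genes were lower (median -2.13), with gammaTub37C at -4.13 and Grip128 at -0.96. For centrosomes and centrioles, 9 of 10 were lower (median -2.29), with asl at -3.42, while cp309 had a log2 change of 0.61, at 60.5 FPKM in glia and 39.3 FPKM in GNP. In the short list of other chromosome genes, 3 of 4 were lower, from Top2 at -3.42 to the condensin II subunit gene Cap-H2 at -0.77.

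The anaphase-promoting complex had 7 of 10 genes at least 2-fold lower (median -1.38). Among them shtd, its largest subunit, was at 5.45 FPKM in glia and 29.1 FPKM in GNP, whereas rap, the Cdh1-type activator that works in G1 and after exit from the cycle, was at 50.8 FPKM in glia and 51.7 FPKM in GNP. The cohesin list had 6 of 10 lower (median -1.24), with mei-S332, a protector of centromeric cohesion, at -2.77, and Nipped-B, the cohesin loader, at 32.5 FPKM in glia and 58.8 FPKM in GNP (log2 change -0.84). Other spindle motors and microtubule proteins had 9 of 17 lower (median -1.08), from mars at 5.50 FPKM in glia and 89.97 FPKM in GNP to Klp98A, an endosome motor, at 16.3 FPKM in glia and 15.1 FPKM in GNP. With scaling to the upper quartile, this list's median was -0.87. Klp59C of this list was listed at 0 in both libraries.

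Regulators of Cdk1 were split, with 5 of 11 genes at least 2-fold lower, 5 within 2-fold and 1 higher (median -0.68). The median was past 2-fold with a pseudocount of 0.1, at -1.03, and among those averaging 10 FPKM or more, at -1.27. The second shift follows from the filter, which drops Myt1 and CycJ, both within 2-fold. It keeps genes such as gwl and Cks30A through their GNP levels. The kinase gene gwl was at 4.20 FPKM in glia and 77.2 FPKM in GNP (log2 change -3.91), and Cks30A, a Cdk-binding subunit, at 4.75 FPKM in glia and 82.4 FPKM in GNP (log2 change -3.86). Its relative Cks85A went the other way, at 42.9 FPKM in glia and 11.4 FPKM in GNP (log2 change 1.83). The phosphatase gene stg, the Cdc25 that triggers embryonic mitoses, was at 74.8 FPKM in glia and 182 FPKM in GNP (log2 change -1.27). Other cytokinesis genes, mostly of the actomyosin cortex, had 8 of 18 at least 2-fold lower and 2 higher (median -0.67). The septin gene Sep5 was at 2.49 FPKM in glia and 56.3 FPKM in GNP (log2 change -4.03), and the septin gene Sep4 at 42.1 FPKM in glia and 6.51 FPKM in GNP (log2 change 2.52). The lipid transfer gene vib was the other higher gene, at 67.7 FPKM in glia and 26.1 FPKM in GNP (log2 change 1.34), while the myosin light chain gene sqh stood at 232 FPKM in glia and 235 FPKM in GNP.

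The neighbouring phases of the cell cycle were also lower in glia, with smaller medians. Of 35 DNA replication genes, 31 were at least 2-fold lower, 13 at least 4-fold and 2 at least 8-fold, and the median log2 change was -1.80. They ran from the helicase subunit gene Mcm7, at 29.5 FPKM in glia and 271 FPKM in GNP (log2 change -3.16), to Psf3, at 30.0 FPKM in glia and 25.2 FPKM in GNP (log2 change 0.24). Of 12 genes of G1 control and cell-cycle exit, 8 were at least 2-fold lower, 4 at least 4-fold and 1 at least 8-fold, and the median was -1.35. They ran from Rbf2, at 1.84 FPKM in glia and 22.6 FPKM in GNP (log2 change -3.06), to rap, already counted in the anaphase-promoting complex. Against these, 35 of the 43 mitosis and cytokinesis genes were at least 4-fold lower and 25 at least 8-fold. The difference between lists was not tested, since each cell type had 1 library.

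**Figure D3:**
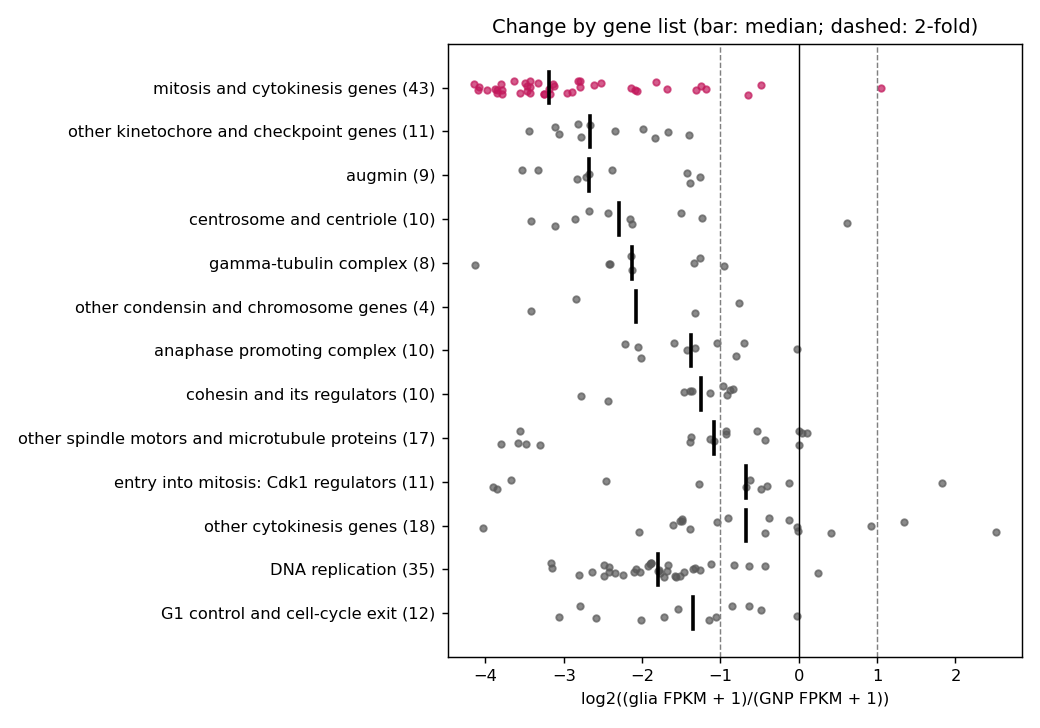
Log2 change of each gene (points, spread vertically for legibility) in the 43 mitosis and cytokinesis genes and in 12 other lists, with the number of genes in brackets, the median as a black bar and 2-fold as dashed lines. The median is -3.19 for the 43 genes, between -2.68 and -0.67 for the other mitotic lists, -1.80 for DNA replication and -1.35 for G1 control.

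The members with the most annotated transcripts had smaller changes than most others. By the BDGP6 annotation, 4 members had 5 or more transcripts, namely tacc with 13, Klp10A and pbl with 6 each and msps with 5, and their log2 changes lay between -1.68 and 1.05, with a median of -1.28. The 22 members with 1 transcript had a median of -3.29 and the 17 with 2 to 4 transcripts a median of -3.25. None of the 4 genes with 5 or more transcripts was at least 8-fold lower, against 14 of the 22 and 11 of the 17. However, Mis12 and vih, which also lay within 2-fold, have 1 transcript each. Across the 43 genes the Spearman coefficient of the change with the number of transcripts was 0.19 and the Pearson coefficient 0.60. The gene tacc has both the most transcripts and the highest change, which weighs on the Pearson coefficient. These coefficients were not computed without tacc. The other mitotic genes had medians of -2.14 for 37 genes with 1 transcript, -1.39 for 47 with 2 to 4 and -0.84 for 21 with 5 or more. Among all genes with at least 10 FPKM in GNP, the medians were -0.61, -0.37 and -0.12 in the same order. That filter is on the GNP level alone, which favours genes lower in glia. Without it, the medians of all matched genes were 0.004, 0.07 and 0.30. The order by number of transcripts was thus also present among genes in general, though not as a lower level in glia. The annotation is later than the one the values were made with, and the FPKM of a gene covers all of its transcripts, so no isoform could be followed.

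**Figure D4:**
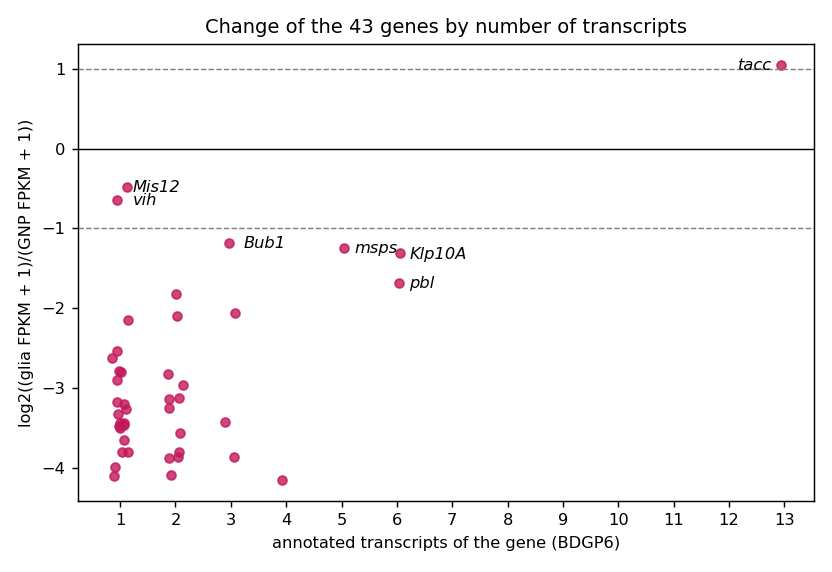
Log2 change of each of the 43 genes (y axis) by the number of transcripts annotated for it in BDGP6 (x axis, points spread slightly for legibility), with 2-fold as dashed lines. The 4 genes with 5 or more transcripts, tacc, Klp10A, pbl and msps, lie between -1.68 and 1.05.

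The 43 genes were spread over the genome, with 9 on chromosome arm 2L, 9 on 2R, 10 on 3L, 11 on 3R and 4 on X. In BDGP6, 21 of them have a protein-coding gene on the other strand that starts within 500 bases upstream of their own start. Of these 21 neighbours, 11 were at least 2-fold lower in glia and 1 at least 2-fold higher, while 26.1% of all 3241 genes with such a neighbour were at least 2-fold lower. The members Bub3 and CAP-D2 are such a pair, 230 bases apart, and are counted once from each side, with log2 changes of -1.82 and -3.64. Klp3A and mit(1)15, the earlier symbol of Zw10, start 145 bases apart, with changes of -3.25 and -1.49. The 11 lower neighbours thus include the mitotic genes Bub3, CAP-D2 and mit(1)15 themselves. Beside sti lies tral, a regulator of translation, at 82.2 FPKM in glia and 517 FPKM in GNP. Beside rod lies pygo, a nuclear gene of Wnt signaling, at 8.46 FPKM in glia and 67.2 FPKM in GNP. Next to glu, however, ChLD3 of chitin metabolism was at 11.7 FPKM in glia and 4.23 FPKM in GNP. That pair therefore differed in direction.

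Overlapping genes make some of the values less certain, because the strand of the reads was not stated. In BDGP6, 16 of the 43 members overlap another gene of the expression values, 17 such genes in all. Of these 17, 2 were at least 2-fold lower in glia, 4 at least 2-fold higher, and the median log2 change was 0.20. Some members were lower while their partner was higher in glia. Sse overlaps sif, at 36.8 FPKM in glia and 3.45 FPKM in GNP. Likewise cal1 overlaps cher, at 119 FPKM in glia and 22.4 FPKM in GNP. The 2 lower partners were cact, which overlaps fzy, and CG14490, which overlaps thr. They were at 124 and 1.46 FPKM in glia, against 302 and 11.7 FPKM in GNP. The part of overlapping genes in the values of the members was not tested. Of the 24 members with no overlapping gene of any kind, 23 were at least 2-fold lower in glia, and their median log2 change was -3.34. Mis12 has no overlapping gene, whereas vih overlaps CG10654, at 48.5 FPKM in glia and 42.2 FPKM in GNP. For tacc there are 4 overlapping genes, none of them matched to a gene of the expression values.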

How the data were processed

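Single-end reads from 1 glia and 1 GNP library of nuclear RNA were mapped by the authors to FlyBase transcripts with TopHat (version 1.3.1), and Cuffdiff (version 1.3.0) gave 1 FPKM value per gene. The methods call the unit RPKM, and the build is dm3. The deposited FPKM values were used as given. The GNP column carries the same abbreviation as its library's title. The other column, headed only g, was taken as glia, the remaining library, and every direction given here rests on that assignment. The authors' p-values and calls for the same comparison are also deposited and were not used.

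The change of each gene was computed over all 13623 genes as log2((glia FPKM + 1)/(GNP FPKM + 1)). With 1 library per cell type no test was made, and genes were counted past 2-fold. Depth was estimated from the steps of low values of genes with 1 transcript of at least 600 bases. At the estimated depth, 84.1% of the low values in glia and 85.2% in GNP lay within 0.1 of a whole read. Such read numbers are approximate and cover counting error only. Symbols were matched to the Ensembl BDGP6 annotation for 13468 genes, 2432 of them through RefSeq synonyms, for transcript numbers and neighbours, and no coordinate was converted. Of the listed genes outside the members, 2 were not matched.

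The members and lists were chosen with earlier results of these data known. All members may be named. Of other lists except the cell type markers, which are given by counts and sums with a few examples, the lowest and highest changes and those at least 2-fold higher in glia are named, and other examples were chosen after their values were seen. The alternatives tried were another pseudocount (0.1), 3 scalings (centred on the median gene, upper quartile, TPM), a minimum mean of 1 or of 10 FPKM, and limits of 1.5-fold and 4-fold. A planned search for motifs in promoters was not run. The calculations ran in Python 3.11.15 with pandas 2.3.3 and numpy 2.4.6, correlations in scipy 1.17.1 and plots in matplotlib 3.10.9.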

Additional observations from a re-analysis of the deposited data

How the results depend on the processing

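For 71 results 432 alternatives were run, and 418 left a change on its side of the 2-fold limit with its sign, or a count within 1.5 times. A minimum mean only drops genes, so it cannot alter the change of a single gene. The 418 include 43 such outcomes at 1 FPKM and 39 at 10 FPKM, which were fixed in advance. They also include the medians of lists from which a minimum mean dropped no gene, such as condensin, which were fixed in the same way. The count of members at least 2-fold lower in glia was 40 of 43, and lay between 35 (limit of 4-fold) and 41 (limit of 1.5-fold) in the alternatives that kept all genes. Among subsets chosen after the values were seen it was 23 of the 24 members with no overlapping gene and 20 of the 22 with 1 transcript, counts that are smaller because fewer genes enter. The median log2 change of the members ranged from -3.46 (TPM) to -3.002 (upper quartile). Over the 9795 genes averaging 1 FPKM or more, scaling moved the median log2 change by 0.19 (upper quartile), -0.23 (TPM) and -0.10 (centring). It took Bub1 to -0.99 and tacc to 0.94 and 0.80, and no other member across the 2-fold limit. A limit of 4-fold gave 614 lower and 1153 higher genes among all genes. The median of the Cdk1 regulators was -1.03 with a pseudocount of 0.1 and -1.27 with a mean of at least 10 FPKM. No paired analysis was possible because each cell type had 1 library. None of the alternatives replaces a replicate library, and depth limits mainly the lowest members, such as cid.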

Other observations

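Cell-cycle genes of the oocyte and the early embryo were also lower in the glia library. Of 7 such genes, whose products serve female meiosis or the rapid divisions before zygotic transcription, 6 were at least 2-fold lower in glia, with a median log2 change of -2.37. The maternal gamma-tubulin gene gammaTub37C, already counted above in the gamma-tubulin complex, was at 0.781 FPKM in glia and 30.2 FPKM in GNP. The gene plu was at 2.58 FPKM in glia and 19.3 FPKM in GNP. Likewise gnu was at 2.29 FPKM in glia and 16.0 FPKM in GNP, and mtrm at 1.299 FPKM in glia and 12.5 FPKM in GNP. The kinase gene png was at 1.83 FPKM in glia and 3.21 FPKM in GNP.

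Genes of male meiosis and sperm were mostly near 0 in both libraries, with medians of 0.165 FPKM in glia and 0.109 FPKM in GNP over 12 genes. Exceptions were twe, bol and mia. The second Cdc25 phosphatase gene of the fly, twe, was at 5.21 FPKM in glia and 78.1 FPKM in GNP. It is already counted above among the Cdk1 regulators. The gene bol was at 101 FPKM in glia and 75.9 FPKM in GNP, and mia at 1.54 FPKM in glia and 10.97 FPKM in GNP. The testis tubulin gene betaTub85D was at 1.24 FPKM in glia and 0.114 FPKM in GNP, and fzr2 at 2.66 FPKM in glia and 1.22 FPKM in GNP.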
